A study of Drosophila melanogaster with 2 samples.

Results

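ChIP-seq of the zinc finger protein CG10147 in Drosophila melanogaster embryos placed 525 of 4576 reproducible peaks between genes, away from any annotated promoter. These 525 intergenic peaks were chosen by position alone. The summit of each lay inside no annotated gene and more than 500 bp from every annotated transcription start site (TSS), with transposable elements left out of the annotation. The flies carried a CG10147 transgene fused to GFP (CG10147-GFP). Whole embryos of mixed sex, collected over an age range of 0 to 24 hours, gave chromatin of 200 to 800 bp that was precipitated with an antibody against GFP. The series held 1 group and 2 libraries, biological replicates 2 and 3, so every comparison was between positions or between these libraries. Whole embryos hold many cell types and stages, and occupancy in few cells cannot be told apart from weak occupancy in many.

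Intergenic DNA in the fly holds enhancers, insulators, silencers and unannotated promoters, and distal elements can act on genes that are not their nearest neighbours. Proteins of the C2H2 zinc finger class bind DNA through tandem fingers that each read a few bases, and many of the fly members of this class are architectural or promoter-bound factors. A ChIP-seq summit marks the position where most precipitated fragments overlap. It is an estimate of where the protein, or a partner that holds it, was cross-linked.

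The sequences below show strong intergenic summits, each with a GC content below the median of intergenic summits. They are the 200 bp around the summits of the 4 intergenic peaks with the highest signal, on arms from which sequence is shown, read from the Release 6 assembly (dm6 coordinates, 1-based). Capitals mark bases covered by any of the 72 words of 7 bases (7-mers) that were more frequent at intergenic summits than 1000 bp away (exact McNemar test, described with its results).
Sol1 to Cyp9f2, chr3R:12403050-12403249, plus strand: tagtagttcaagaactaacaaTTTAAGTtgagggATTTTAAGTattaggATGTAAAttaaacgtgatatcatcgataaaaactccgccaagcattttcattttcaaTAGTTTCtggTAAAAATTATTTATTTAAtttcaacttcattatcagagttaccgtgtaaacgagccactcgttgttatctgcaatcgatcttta
lncRNA:CR44603 to lncRNA:CR45695, chr2L:1638717-1638916, plus strand: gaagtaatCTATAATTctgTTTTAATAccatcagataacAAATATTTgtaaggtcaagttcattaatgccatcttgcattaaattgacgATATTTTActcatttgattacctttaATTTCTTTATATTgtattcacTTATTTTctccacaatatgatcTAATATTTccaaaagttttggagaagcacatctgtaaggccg
NijA to CG43245, chr3L:10752693-10752892, plus strand: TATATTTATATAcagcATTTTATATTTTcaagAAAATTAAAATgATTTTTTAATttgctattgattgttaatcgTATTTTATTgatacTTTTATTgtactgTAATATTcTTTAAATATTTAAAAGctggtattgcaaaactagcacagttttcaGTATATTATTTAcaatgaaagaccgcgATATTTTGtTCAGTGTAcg
lncRNA:CR45643 to tara, chr3R:16224409-16224608, plus strand: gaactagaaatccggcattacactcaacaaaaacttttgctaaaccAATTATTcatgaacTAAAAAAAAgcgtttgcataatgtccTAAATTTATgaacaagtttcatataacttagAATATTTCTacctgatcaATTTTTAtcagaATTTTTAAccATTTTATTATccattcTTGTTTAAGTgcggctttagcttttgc
Capitals covered 48, 60, 112 and 69 of the 200 bases, in that order, and G and C made up 30%, 28.0%, 22.5% and 28.5%. Over the 525 intergenic summit windows the median GC content was 33%, with quartiles of 29% and 37.5%.

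A second set of sequences shows a spaced pattern that a share of the intergenic peaks had beside the summit. It consists of TTT, any 4 bases, and CAGTG. The pattern was composed after the 7-mer results of these peaks were seen, so its counts are a description without a test. The 6 stretches are those of the strongest intergenic peaks that held it on the 3′ side of the summit, from 25 up to 150 bp away, among peaks found in both replicate lists and on arms from which sequence is shown. Each runs from 20 bases before the summit to 20 bases past the pattern, along the strand of the pattern, with TTT and CAGTG in capitals, so the summit is base 21.
NijA to CG43245, chr3L:10752773-10752908, plus strand: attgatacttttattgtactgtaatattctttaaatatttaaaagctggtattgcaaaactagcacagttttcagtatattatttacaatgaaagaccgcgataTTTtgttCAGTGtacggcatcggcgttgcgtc
Atg13 to stck, chr3R:8355735-8355854, plus strand: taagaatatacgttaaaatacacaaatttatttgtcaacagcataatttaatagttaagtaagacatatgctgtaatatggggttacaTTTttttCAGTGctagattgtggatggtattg
CG10089 to stv, chr3L:13476970-13477159, plus strand: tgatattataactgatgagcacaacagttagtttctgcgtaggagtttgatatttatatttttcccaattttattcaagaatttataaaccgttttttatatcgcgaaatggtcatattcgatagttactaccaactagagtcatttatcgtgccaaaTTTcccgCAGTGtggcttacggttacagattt
lncRNA:CR45695 to chinmo, chr2L:1649445-1649557, plus strand: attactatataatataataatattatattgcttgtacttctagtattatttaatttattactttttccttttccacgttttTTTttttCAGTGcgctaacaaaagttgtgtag
CG1572 to PGRP-SA, chrX:11560472-11560660, plus strand: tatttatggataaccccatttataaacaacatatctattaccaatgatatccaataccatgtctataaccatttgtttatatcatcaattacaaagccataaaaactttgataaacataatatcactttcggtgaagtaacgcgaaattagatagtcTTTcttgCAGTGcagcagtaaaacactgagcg
slp1 to slp2, chr2L:3832490-3832610, plus strand: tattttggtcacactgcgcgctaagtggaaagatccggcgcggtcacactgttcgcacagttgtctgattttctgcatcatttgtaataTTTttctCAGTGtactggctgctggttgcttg
The centre of the pattern lay 89.5, 73.5, 143.5, 66.5, 142.5 and 74.5 bp to the 3′ side of the summit in these stretches. The TTT before CAGTG is set by the pattern itself. In every stretch shown the 4 free bases between them were also mostly T and C.

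The pattern was common at intergenic summits and rare beside them. Within 200 bp windows, 87 of 525 intergenic summits held it (16.6%, 95% exact interval 13.5 to 20.03). Windows 1000 bp to the left of the same summits held it in 10 cases (1.90%), and windows to the right in 13 cases (2.48%). Of 181303 adjoining windows of 200 bp in eligible sequence, meaning bases outside genes and over 500 bp from a TSS, 2.11% held it. Peaks in genes over 500 bp from a TSS had it in 14.4% of 1627 windows, and promoter peaks, within 500 bp of a TSS, in 5.16% of 2424. In 400 bp windows the shares rose to 28.2% between genes (148 peaks), 20.5% in genes and 8.95% at promoters, against 4.76% in windows 1000 bp to the left of intergenic summits. All intervals in the text cover counting error only.

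The position of the pattern was lopsided. Along its own strand, 173 of its 192 matches in the 400 bp windows of intergenic peaks (90.1%) lay on the 3′ side of the summit, with a median of 88 bp and quartiles of 54.3 and 115 bp. From 25 up to 150 bp there were 152 matches on the 3′ side and 8 on the 5′ side. Measured from the summits of each replicate's own list, the median was 82.5 bp in replicate 2 (163 of 183 matches on the 3′ side) and 83.5 bp in replicate 3 (171 of 190). Peaks in genes had 94.1% of 405 matches on the 3′ side, and promoter peaks 84.2% of 234. The pattern took either strand of the genome, with 100 of 192 matches on the plus strand, and between genes in tandem 48 of 98 matches lay on the strand of the genes.

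**Figure D1:**
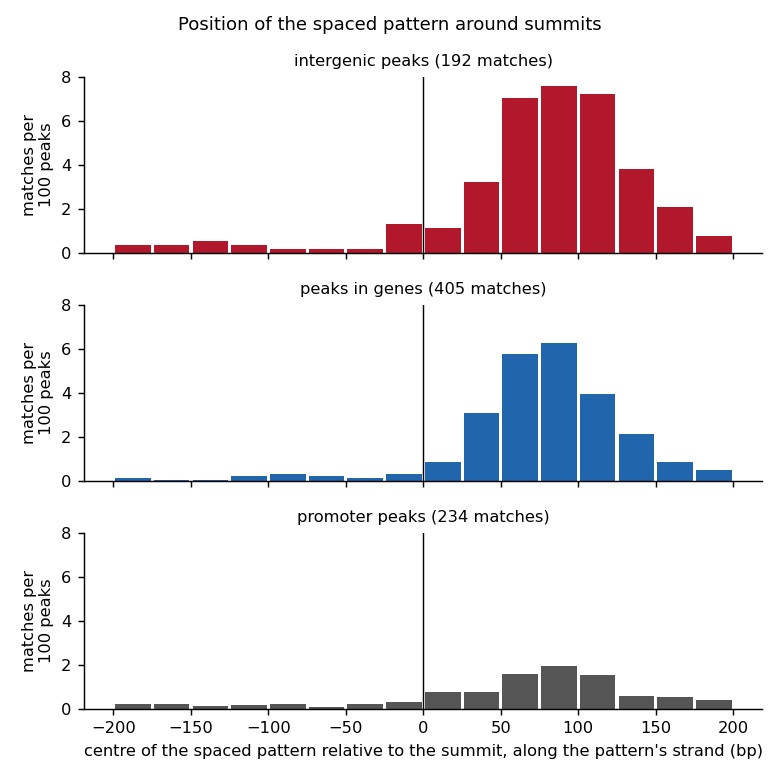
Matches of the spaced pattern per 100 peaks in 25 bp bins, by distance from the summit along the strand of the pattern, for intergenic peaks, peaks in genes and promoter peaks in 400 bp windows. In all 3 classes the bars rise on the 3′ side of the summit, and the intergenic peaks reach 7.62 matches per 100 peaks in the bin from 75 to 100 bp.

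Single words were also more frequent on the 3′ side, to varying degrees. Between 40 and 130 bp on the 3′ side of the summit, along the strand of the word, CAGTGTA occurred at 57 intergenic peaks (10.9%), against 5 (0.952%) on the 5′ side. CAGTGCA occurred at 53 against 8 peaks, and CTCAGTG at 41 against 7. CAGTG alone was less uneven, at 36.8% of intergenic peaks on the 3′ side and 18.3% on the 5′ side. Its shares were 29.3% and 22.4% at peaks in genes, and 23.4% and 22.2% at promoter peaks. T-rich words without CAGTG were also uneven: TTTTTTC was found on the 3′ side at 82 peaks (15.6%) and on the 5′ side at 17 (3.24%). TTTTTTT was less so, at 84 against 36 peaks. At promoter peaks TTTTTTC was found at 6.77% and 4.99%. At peaks in genes this word was again uneven, with 13.95% on the 3′ side and 5.47% on the 5′ side. The placement of CAGTGTA was shared by peaks in genes (8.85% and 0.860%) and by promoter peaks (3.84% and 0.660%). These words were picked after their counts were seen. The CAGTG of the pattern shares CAGT with the initiator core TCAGT, which in fly core promoters surrounds the start site. At promoter peaks, where start sites are annotated, 9 of 234 matches had the A of CAGTG within 5 bp of an annotated TSS, and the median distance was 212 bp.

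Intergenic peaks with and without the pattern had overlapping intervals of signal. With it the median signal was 212 (interval 194 to 238, n = 148), against 206 (interval 200 to 217, n = 377) without it. Signal is the value the authors' peak caller gave each peak, on a scale that the sources used here do not state. The pattern was present in 400 bp windows of 26.7% of the strongest 131 intergenic peaks, and in 31.3%, 29.0% and 25.8% of the next 3 sets, with overlapping intervals. Peaks with it lay farther from a TSS, at a median of 3346 bp (interval 2666 to 4072) against 2153 bp (interval 1822 to 2568). Below the reproducible peaks in the pooled list of 30000, the share in 200 bp windows was 11.1% of 494 intergenic peaks at ranks 4577 to 8000, 9.77% of 1249 at ranks 8001 to 15000 and 5.37% of 3406 at ranks 15001 to 30000.

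Words made of A and T led the 7-mers at intergenic summits. Each 7-mer on either strand was compared between the 200 bp at the 525 summits and the 200 bp centred 1000 bp to the left. Of all such words tested, 72 (0.879%) were more frequent at summits and 16 (0.195%) less frequent, at an adjusted p under 0.05 in a 2-sided exact McNemar test with Benjamini-Hochberg adjustment. The test describes positions in these libraries and not embryos. Of the 72, 44 held no G or C and 5 held CAGTG. Of the 16, 15 held at least 4 G or C bases. Words without G or C are a small part of all words tested, and words with at least 4 G or C bases a large part. With the strongest peaks of replicate 2 in place of the reproducible list, the same test gave 29 more frequent and 0 less frequent 7-mers, the latter against 299 at an unadjusted p under 0.05. Without summits in soft-masked sequence it gave 20 and 3.

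AAAATAT was found in 167 summit windows (31.8%) and 83 windows on the left (15.8%; adjusted exact p = 1.53e-06). TTAAAAA was found in 27.8% and 12.2% (adjusted exact p = 1.53e-06), and AAATGTA in 19.0% and 6.29% (adjusted exact p = 1.95e-06). Of the other words, TATAATA was in 16.8% against 5.33%, TTTAAAA in 27.2% against 13.0% and TAAAATA in 25.1% against 11.4%. TAAAAAA was in 27.6% against 13.5%, AAAAAAT in 31.0% against 16.6% and AAATATT in 28.0% against 14.1%, and all 6 passed the test. Such words were also frequent at the other peaks. AAAATAT was at 28.4% of peaks in genes and 29.7% of promoter peaks, and TTAAAAA at 24.7% and 27.4%. TATAATA was lower there than between genes, at 12.05% of peaks in genes and 11.9% of promoter peaks. CAGTGTA was the only 1 of the 10 words with the lowest adjusted p to hold more than 1 G or C, at 47 summits (8.95%) against 8 on the left (1.52%; adjusted exact p = 3.64e-05). Its share was 7.81% at peaks in genes, 4.41% at promoter peaks and 1.88% of eligible windows. CACTGAG, the reverse complement of CTCAGTG, was at 47 summits against 9 (adjusted exact p = 8.46e-05). ATAGCTA, a word with neither CAGTG nor a run of A, was at 27 against 2 (adjusted exact p = 0.000665). These were 5.14% of summits and 0.381% of windows on the left. ATAGCTA was in 1.68% of eligible windows, 2.77% at peaks in genes and 3.88% at promoter peaks.

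Composition moved with these words. The 200 bp at intergenic summits had a mean GC content of 33.6% (SD 6.85, n = 525), against 41.1% (SD 9.10) in the windows on the left and 40.8% (SD 8.503) over eligible windows. At 393 of 525 summits GC was lower than in the window on the left. Of the windows on the left, 154 were centred in a gene or within 500 bp of a TSS. The part of composition in the word counts was not tested. Peaks in genes had a mean of 33.9% and promoter peaks 35.5%.

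**Figure D2:**
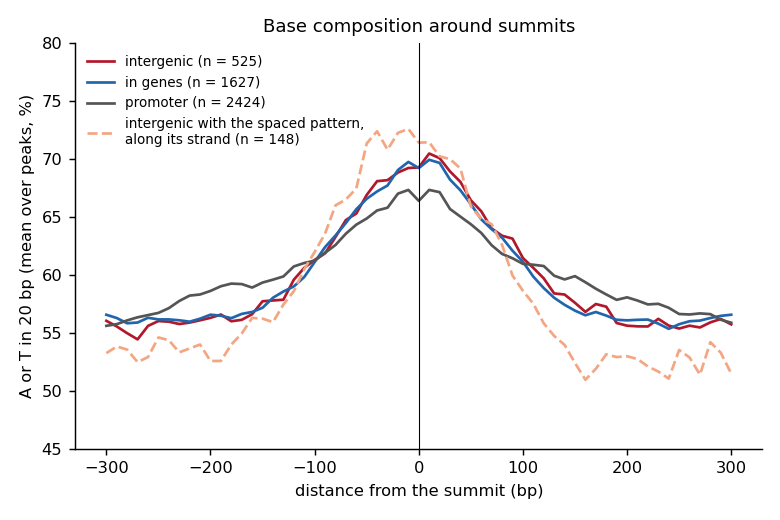
Mean share of A and T in 20 bp bins placed every 10 bp within 300 bp of the summit, for intergenic peaks, peaks in genes, promoter peaks, and intergenic peaks with the spaced pattern turned to the strand of the pattern. The intergenic profile peaks at 70.4% A and T just beside the summit and is at 55.5% near 290 bp to the left.

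Few known fly motifs stood out. Of 25 listed motifs, 6 (24%) were more frequent at intergenic summits and 4 (16%) less frequent, with adjustment over the motifs. Of the 6, 3 were words of A and T already given, taken into the list from earlier results of these data, and 1 was a run of 7 A (28.4% against 17.9%, adjusted exact p = 0.000264). The TATA box TATAAA, bound by the TATA-binding protein at core promoters, was at 198 summits against 134 (37.7% and 25.5%, adjusted exact p = 0.000264). The initiator core TCAGT was at 189 against 135 (36.0% and 25.7%, adjusted exact p = 0.00166). TATAAA was also at 38.6% of peaks in genes and 38.0% of promoter peaks, and TCAGT at 35.6% and 31.8%. TATAAA, made of A and T alone, lies within TATAAAA, and TCAGT lies within CTCAGTG. Both longer words were among the more frequent 7-mers, so neither motif is a separate result. The 4 less frequent ones were the E-boxes CAGCTG (21 against 50, adjusted exact p = 0.00274) and CACGTG (5 against 18, adjusted exact p = 0.0270), sites of basic helix-loop-helix factors, the STAT site TTCNNNGAA (19 against 45, adjusted exact p = 0.00488) and the core GCCATT of the Polycomb recruiter Pho (44 against 71, adjusted exact p = 0.0270). Shares of CAGCTG were 4% at summits, 9.52% on the left and 6.85% in eligible windows, and of CACGTG 0.952%, 3.43% and 2.19%. For TTCNNNGAA they were 3.62%, 8.57% and 6.11%, and for GCCATT 8.38%, 13.5% and 15.1%. Windows on the left thus exceeded eligible windows for all but GCCATT. The part of composition in these counts was not tested. TATCGATA, the site of the promoter factor Dref, was at 5 summits and at none on the left (adjusted exact p = 0.121), and at 7.38% of promoter peaks. Cores of the insulator proteins CTCF (5 against 2), Su(Hw) (7 against 3) and BEAF-32 (107 against 111) did not pass, nor did the Zelda site (6 against 5) or the GATA site (20 against 19).

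Most intergenic peaks were found in both libraries. A summit within 100 bp was present in both replicate lists of 30000 for 479 of 525 (91.2%, interval 88.5 to 93.5), in replicate 3 alone for 36, in replicate 2 alone for 9 and in neither for 1. The share was 92.0% for peaks in genes and 88.3% for promoter peaks. All of these peaks were chosen from the same 2 libraries by a measure of agreement between replicates. High shares in both lists therefore follow in part from that choice. Among the 4576 strongest positions of both replicates the share was 60.0% (315 of 525, interval 55.7 to 64.2), against 61.6% over all reproducible peaks. It followed the pooled signal, at 126 of the strongest 131, 113 and 58 of the next sets of 131, and 18 of the weakest 132. The IDR list was cut by pooled signal, so this slope is in part the cut itself. Replicate summits lay a median of 27 bp apart. Signals of the 2 replicates over the 479 peaks had a Spearman rho of 0.543 across peaks, which are not independent replicates and were chosen by pooled signal.

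**Figure D3:**
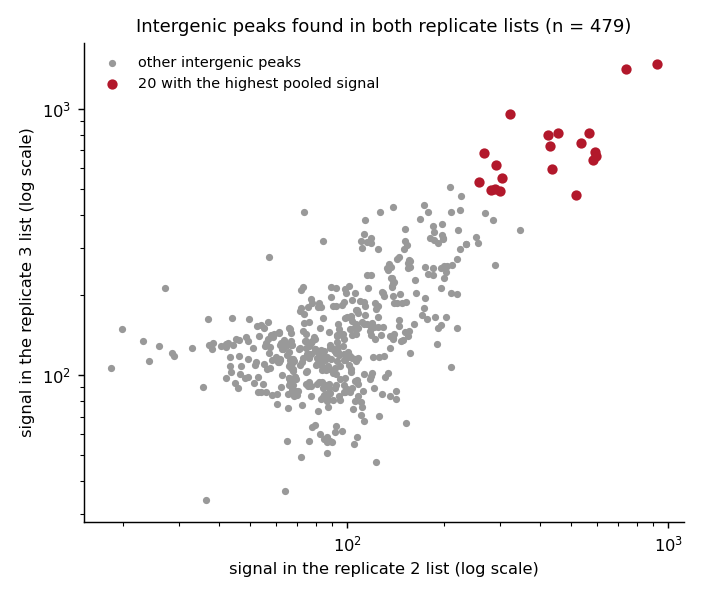
Signal of the 479 intergenic peaks found in both lists, replicate 2 against replicate 3, both on log scales. Red points are the 20 peaks with the highest pooled signal, which rank no lower than 374 in replicate 2 and 279 in replicate 3.

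Intergenic peaks were weaker than the others by a small margin. Their median signal was 208 (interval 200.9 to 217) with quartiles of 173 and 304. Peaks in genes had a median of 224 (interval 218 to 229) and promoter peaks 240 (interval 233 to 246). Of the 500 strongest reproducible peaks 37 were intergenic, 7.40% of them, against 11.5% of the whole list. The share went on rising below the list, to 14.4% at ranks 4577 to 8000, 17.8% at ranks 8001 to 15000 and 22.7% at ranks 15001 to 30000 of the pooled peaks. All of these shares were below 27.2%, the share of eligible sequence in the bases of the arms. All 525 had a summit sequence of 50 bp that occurred once in the 6 arms, 2 lay in annotated transposable elements, and 137 (26.1%) had their summit in soft-masked sequence, against 26.6% of eligible bases.

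Density fell steeply with distance from genes' start sites. The median distance to a TSS was 2485 bp (interval 2161 to 2912). Over the 36.5 Mb of eligible sequence there were 14.4 peaks per Mb. From 500 to 1000 bp the density was 38.9 per Mb (interval 32.002 to 46.9, 110 peaks), from 1000 to 2000 bp 25.4 per Mb, and from 2000 to 5000 bp 18.9 per Mb. It was 10.05 per Mb from 5000 to 10000 bp, 9.01 per Mb from 10000 to 20000 bp, whose intervals overlapped, and 1.51 per Mb (interval 0.781 to 2.64, 12 peaks) beyond 20000 bp. Soft-masked sequence made up 20.4% of eligible bases in the nearest class and 41.5% in the farthest. Its part in the fall was not tested. Median signal varied less, from 191 to 230 over the 6 classes, and between 89.4% and 93.3% of each class was found in both replicate lists.

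**Figure D4:**
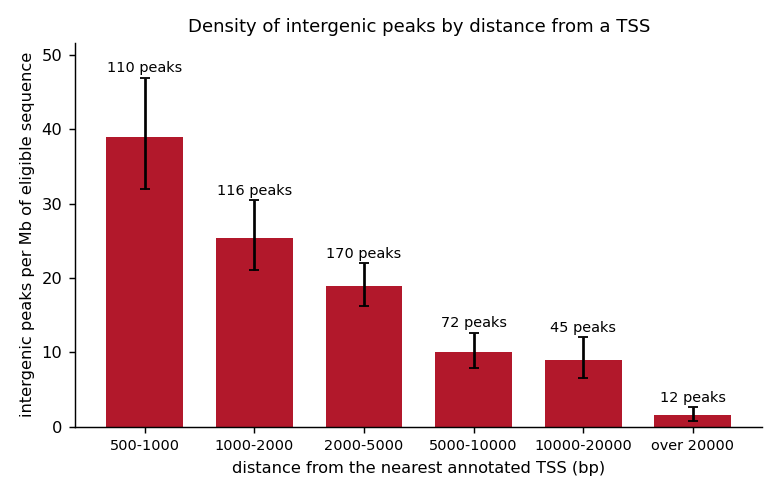
Intergenic peaks per Mb of eligible sequence in 6 classes of distance from the nearest TSS, with exact Poisson 95% intervals and the number of peaks. The bars fall from 38.9 per Mb at 500 to 1000 bp to 1.51 per Mb beyond 20000 bp.

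Gaps between divergent genes held more peaks per Mb than other gaps. Of 6516 gaps with eligible bases, 398 (6.11%) held an intergenic peak. Divergent gaps had 21.2 per Mb (interval 18.0 to 24.8, 157 peaks), tandem gaps 13.8 (interval 12.1 to 15.6, 253 peaks) and convergent gaps 12.3 (interval 10.2 to 14.8, 115 peaks). Intergenic peaks lay a median of 1933 bp from a TSS in divergent gaps and 4415 bp in convergent gaps, and this difference was not taken out of the densities. Gaps over 20000 bp held 20.8% of the peaks and 47.1% of eligible bases. Arm 3L had the highest density, 19.1 per Mb (interval 16.3 to 22.1, 173 peaks), followed by 2L with 17.1 (interval 14.1 to 20.6, 115 peaks), and their intervals overlapped. Arm 2R was the lowest of the large arms, at 9.13 per Mb (interval 7.09 to 11.6, 68 peaks). On chromosome 4 there were 3 peaks, the strongest of them between Asator and zfh2 (signal 386).

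The strongest intergenic peak lay in a gap of 437 bp between the 3′ ends of Sol1 and Cyp9f2, which encodes a cytochrome P450 (3R, summit 12403150). Its pooled signal was 2287, rank 14 of 4576, with a signal of 920 in replicate 2 and 1473 in replicate 3. It ranked 35 and 9 of 30000 in those lists, so it was strong in both. The second lay upstream of chinmo, a gene of a BTB zinc finger protein that sets temporal identity in neurons, between lncRNA:CR44603 and lncRNA:CR45695 (2L, summit 1638817). It had signals of 737 in replicate 2 and 1421 in replicate 3 and ranked 46 and 12.

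Other peaks among the 20 strongest lay near genes of diverse function. A peak 19132 bp upstream of CG43245, in the gap that starts at NijA, a gene of a ninjurin cell adhesion protein (3L, summit 10752793), had 322 in replicate 2 and 959 in replicate 3. A peak between blw and CycB, which encode an ATP synthase subunit and cyclin B (2R, summit 22802970), had 593 and 693. A peak 1142 bp upstream of tara (3R, summit 16224509) had 535 and 744, and a peak 3351 bp upstream of foxo, the forkhead factor of insulin signalling (3R, summit 14053594), had 583 and 646. These 4 ranked between 74 and 245 in replicate 2 and between 44 and 139 in replicate 3. A peak 512 bp upstream of CG17896 (X, summit 494007) had 597 in replicate 2 and 669.96 in replicate 3. Others in the 20 lay beside jp, a junctophilin gene (signal 1139), stck, a gene of an adhesion adaptor (999), bin, the FoxF factor of the visceral mesoderm (964), the rhodopsin genes Rh5 (852 and 755) and ninaE (788), and RasGAP1, an inhibitor of Ras (786).

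Polycomb group genes bordered some of the strongest intergenic peaks. The third strongest of all intergenic peaks, between Su(z)2 and CG13323 (2R, summit 13035374), 27463 bp past the end of Su(z)2, had 568 in replicate 2 and 815 in replicate 3. A peak 805 bp upstream of ph-d, in the gap between ph-d and ph-p, whose products are polyhomeotic subunits of the Polycomb repressive complex (X, summit 2124091), had 424 and 799, and a second summit 202 bp away had 143 and 275. A group of 3 peaks lay in the gap between CG13321 and Psc, a gene of the same complex. Its strongest (2R, summit 12959407), 6590 bp from Psc, had 227 and 470. Of 24 Polycomb and trithorax group genes, 15 bordered eligible sequence and 4 (Su(z)2, ph-d, ph-p and Psc) stood beside an intergenic peak. Their gaps held 7 peaks in 0.0689 Mb, 102 per Mb (interval 40.8 to 209), against 14.96 per Mb over the gaps of all genes. Of the 4 genes, Psc and Su(z)2 are neighbours on 2R, and ph-d and ph-p share a gap. Both summits by ph-d came from the same deposited region, and the 3 peaks by Psc spanned 1233 bp. The interval takes peaks as independent, which these are not, and the list was chosen with earlier results of these data known.

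Lists of developmental regulators varied in how many of their genes stood beside an intergenic peak, and no test was made of these shares. Over all 18164 genes, 754 (4.15%) were the nearest gene on either side of an intergenic peak, which is 8.10% of the 9303 genes that border eligible sequence. Among bordering genes the share was 26.9% for segmentation genes, 32% for imaginal and appendage regulators, 22.2% for neural regulators, 22.7% for secreted signals, and 15% both for mesoderm and heart regulators and for nuclear receptor and ecdysone genes. Of 27 segmentation genes 7 were (25.9%), among them the forkhead factors slp1 and slp2, which share the gap of a peak of signal 580, and ptc, the hedgehog receptor gene (332). Per Mb of their gaps there were 15.1 peaks (interval 6.93 to 28.8), close to the 14.96 of all genes. Of 26 imaginal and appendage regulators 8 were (30.8%), at 19.9 per Mb (interval 8.61 to 39.3), including the homeobox gene B-H2 (382), hth (218) and the Pax6 genes ey (206) and toy (203). Of 25 neural regulators 4 were, led by the Sox gene D (308), at 15.9 per Mb, and of 20 mesoderm and heart regulators 3 were, at 18.1 per Mb. Of 25 secreted signals 5 were, with upd1 (278) and wg and Wnt4 beside 1 peak (169), at 18.5 per Mb. Of 23 nuclear receptor and ecdysone genes 3 were, at 18.2 per Mb. The intervals of these 6 lists all held the value of all genes.

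The remaining lists ran from none of their genes to a share above that of all genes. No intergenic peak stood beside any of 8 Hox genes, 6 GATA factor genes with ush, or 15 architectural protein genes, whose gaps summed to 0.0546, 0.0313 and 0.00149 Mb, so that fewer than 1 peak would fall there at the density of all genes. Of 25 genes of the Notch pathway and E(spl) complex, E(spl)malpha-BFM was beside a peak (449; 4.35% of bordering genes), and of 15 homeobox genes of the Iroquois and similar loci, Lim1 was (159; 7.69%). Odorant and gustatory receptor genes had 5 of 186, at 5.59 per Mb (interval 1.82 to 13.1), an interval below the 14.96 per Mb of all genes (interval 13.7 to 16.3). Ribosomal protein genes had 3 of 93, at 6.51 per Mb (interval 1.34 to 19.0), with RpS23 the strongest (227). Cuticle protein genes had 8 of 125, at 27.1 per Mb (interval 10.9 to 55.9). Genes of tRNAs had 9 of 290 (3.10%, against 4.15% of all genes), which was 10.7% of bordering genes against 8.10%. Their gaps held 16 peaks at 28.3 per Mb (interval 16.2 to 45.9), an interval above the value of all genes. Of these 16, 4 shared the gap between tRNA:Ile-TAT-1-2 and CG13898, and the interval takes peaks as independent. The strongest of the 16 lay 8988 bp from tRNA:Ser-GCT-2-2 in the foxo gap. The 2 of 301 snRNA and snoRNA genes were snRNA:U2:14B (345) and snoRNA:Psi18S-301 (171). Long noncoding RNA genes had 191 of 3261 (5.86%). Their gaps held 255 of the 525 peaks at 17.3 per Mb (interval 15.3 to 19.6), also above the value of all genes, though the intervals of both lists overlapped that of all genes.

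Many intergenic peaks had another close by. Of the 525, 175 (33.3%) had a further intergenic summit within 5000 bp, in 67 groups, of which 22 held 3 or more. The 5 largest, with groups of equal number ordered by summed signal, lay on 2L and 3L. The fifth of them held 4 peaks, as did 5 further groups, among them 1 on 2R and 1 on 3R. The group upstream of chinmo held 7 peaks in 15626 bp, with signals from 175 to 2130, and 6 of them were found in both replicate lists. Its 2 strongest had signals of 737 and 454 in replicate 2 and 1421 and 811 in replicate 3, and 1 peak of the group (summit 1628358) had 27.0 and 213. Beyond lncRNA:CR45695, 2 more peaks lay 1793 and 2506 bp upstream of chinmo (644 and 346). Across lncRNA:CR44363 to CG7560 there were 7 peaks in 6929 bp, with signals from 149 to 563, 5 of them in both lists. Downstream of scyl, a hypoxia-induced inhibitor of TOR signalling, 6 peaks in 5144 bp had signals from 188 to 506, and all were in both lists. The gap with the most peaks was that between NijA and CG43245, where 8 were spread over 75047 bp, with signals from 150 to 1291. Of these, 4 ranked from 11915 to 15942 in replicate 2 and from 2786 to 4543 in replicate 3.

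**Figure D5:**
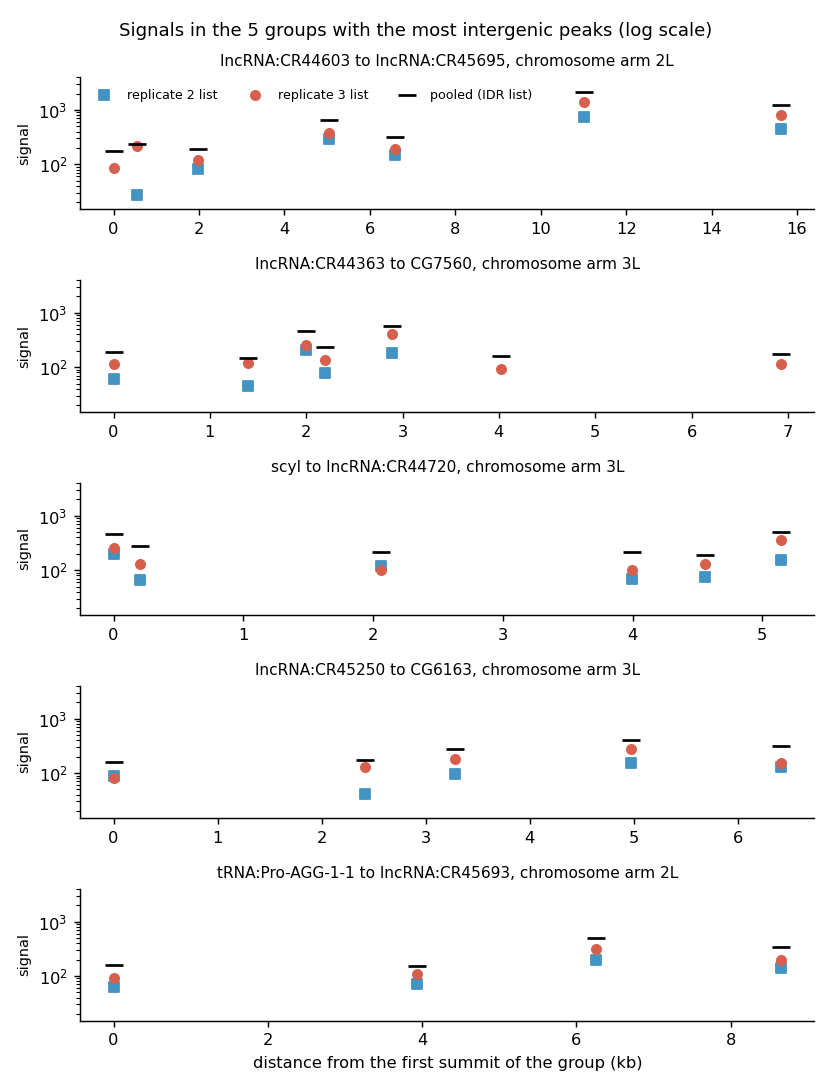
Signals of the intergenic peaks in the 5 groups with the most peaks (for the fifth, the group of 4 with the highest summed signal), by distance from the first summit of the group in kb, on a log scale. Squares and circles are the values in the lists of replicates 2 and 3 and dashes the pooled values, which lie above both. Where a square is absent the peak had no summit within 100 bp in replicate 2.

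The 5 peaks farthest from any annotated start site had pooled signals from 150 to 823. The farthest, 37703 bp from a TSS in the gap of bab1 and bab2, paired genes of BTB factors of leg and abdomen patterning (3L, summit 1139573), had 98.7 in replicate 2 and 97.7 in replicate 3. In the NijA gap, summits at 36562, 32973 and 31934 bp had 35.6, 169 and 303 in replicate 2 and 90.4, 387 and 550 in replicate 3. A peak 33835 bp from the start of vvl, which encodes a POU homeodomain factor, had 98.7 and 211. Signals were not put on a common scale between the lists, and replicate 3 gave higher values at all but the bab peak of these 5.

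At the boundary of the definition, peaks just inside it lay 505 bp from the start sites of CG3348 (signal 578) and CG12402 (317). Just outside were peaks at 500 bp from E(spl)m2-BFM (185) and 497 bp from GstD1 (370).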

How the data were processed

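Intergenic peaks were taken from 4 peak lists that the authors deposited for dm6: a list per replicate, a list from both libraries pooled, and an IDR list (irreproducible discovery rate, a measure of agreement between replicates). The signal of a peak is the deposited value of the authors' caller, on a scale not stated here. The −log10 q-value that the authors deposited per peak was read but not used in a result. No aligner, caller or threshold is named by the labels or file headers used here. Control reads were not analysed here, and the depth behind each value is unknown. The IDR list holds the strongest 4576 of 30000 pooled peaks.

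Summits were placed against FlyBase annotation 6.54 (Ensembl release 115) on arms 2L, 2R, 3L, 3R, 4 and X, and sequence came from the Release 6 assembly (RefSeq), which shares dm6 coordinates. A peak in a replicate list was matched by a summit within 100 bp. Shares have exact Clopper-Pearson 95% intervals, medians have order-statistic intervals and densities have Poisson intervals. Words and motifs were counted once per 200 bp window on both strands. They were compared with the window 1000 bp to the left by exact McNemar tests. The test was checked on windows drawn at random from eligible sequence, with chosen words set as present in a share of them. Both drawn sets had the same source, so the check did not cover a difference in composition. Python 3.11.15, NumPy 2.4.6, pandas 2.3.3 and SciPy 1.17.1 were used. Of the gene symbols in 18 lists, 5 matched no annotated gene.

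The definition of the peaks, the gene lists, the motifs and the rule for named peaks were chosen with earlier results of these data known. The rule named the 20 strongest intergenic peaks (the text gives a part of them), the 5 farthest from a TSS, the strongest on chromosome 4, the 5 largest groups, genes with the strongest peaks of each list, the 10 words with the lowest adjusted p, the motifs that passed, and the peaks at the threshold. The spaced pattern and the words given with it were chosen after seeing the data. Alternatives changed the TSS distance, the annotation, the set of peaks, the windows, the matching distance and the libraries.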

Additional observations from a re-analysis of the deposited data

How the results depend on the processing

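Most of 124 values recomputed for 14 results stayed within their interval or within 1.5 times the count, and 38 moved. Requiring over 1000 bp from a TSS gave a median distance of 3416 bp and 27.95% within 2000 bp. Allowing over 200 bp gave 823 peaks, a median signal of 223.1, a median distance of 1028 bp, 63.67% within 2000 bp, and 283 more frequent and 221 less frequent 7-mers with 10 more frequent motifs. Protein-coding genes alone gave a median distance of 3916 bp, 30.98% within 2000 bp and 29 less frequent 7-mers. The stronger part of the IDR list (its first 2288 ranks) gave 213 peaks, of which 96.71% were in both lists and 94.37% among the strongest of both, with a median signal of 341.8, a median distance of 1906 bp, 50.23% within 2000 bp, and 12 more and 1 less frequent 7-mers. Peaks found in both lists were among the strongest of both in 65.76%. Leaving out soft-masked summits gave 20 more and 3 less frequent 7-mers among 388 peaks, and merging summits within 1000 bp gave 10 less frequent ones. Matching within 50 bp gave 67.24% in both lists and 45.9% among the strongest of both, and matching within 250 bp 95.81% in both lists. Windows of 100 bp gave 36 more and 1 less frequent 7-mers and a median GC of 30%, and a comparison window 2000 bp to the left gave 28 less frequent ones. For the spaced pattern, alternatives chosen after seeing the data gave 5.333% in 100 bp windows, 28.19% in 400 bp windows and 42.67% for CAGTG alone.

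With the strongest peaks of a replicate in place of the IDR list, the median GC was 33% without replicate 2 and 35% without replicate 3. More frequent 7-mers numbered 86 without replicate 2 and 29 without replicate 3, and less frequent ones 19 and 0 (299 at an unadjusted p under 0.05 in the exact McNemar test). The pattern's median offset was 86.5 bp without replicate 2 and 77 bp without replicate 3. These sets held 521 intergenic peaks without replicate 2 and 507 without replicate 3, against 525 in the IDR list. The cause of these moves was not tested. No value was recomputed per replicate for the replicate shares or the median signal, which need both lists or 1 scale. No paired analysis was possible because there was 1 group.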
